A study of Mus musculus with 8 samples.

Results

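The birth change in Wfdc2 GFP/GFP mouse lung is the difference in RNA level between lungs of E18.5 fetuses and lungs of P1.5 pups. It rests on 4 of the 8 libraries of the series, the 2 E18.5 Wfdc2 GFP/GFP and the 2 P1.5 Wfdc2 GFP/GFP libraries, and on the 15627 of 25965 deposited genes that had a mean of at least 0.05 RPKM over all 8 libraries. The 2 E18.5 Wfdc2 +/+ and 2 P1.5 Wfdc2 +/+ libraries, from littermate controls, gave the birth change of normal lung for comparison, and the birth changes of the 2 genotypes share no library. Wfdc2 encodes a secreted protein with WAP (whey acidic protein) domains that is made by airway epithelium. In GFP/GFP mice a reporter cassette with an internal ribosome entry site and enhanced GFP replaces part of exon 1 and all of exon 2 of Wfdc2 on both alleles. The allele was made in TT2 embryonic stem cells that were aggregated with ICR morulae, and the selection cassette had been removed with Cre driven by the CAG promoter. The replicates of a group are described as different animals. The level given below is the deposited log2 RPKM, the log2 of the reads of a gene per kilobase of its span, scaled to the library total. A change is the P1.5 mean minus the E18.5 mean on that scale, with the SE and adjusted p of limma, and a gene is called when the adjusted p is under 0.05.

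At birth the lung stops secreting fluid and starts to clear it, spreads surfactant over newly opened air spaces and takes up inhaled air in place of placental oxygen. In normal lung this is accompanied by maturation of alveolar type II, alveolar type I and club cells, by less cell division and less fetal growth signalling, and by the arrival of leukocytes that guard the new surface. These are the programmes followed here in lungs without Wfdc2.

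The targeted gene matched the labels. Wfdc2 (chr2:164562413-164568510, mm10) had 0 and 1 reads in E18.5 GFP/GFP and 12 and 0 reads in P1.5 GFP/GFP, against 8038 to 32845 reads in the +/+ libraries. The libraries held 19457647 to 37209333 reads in all, so that the 3 reads taken as the limit of detection stood for 0.0806 to 0.154 RPM. The markers of lung tissue were present in every library, among them Nkx2-1 (4.63 to 6.13 log2 RPKM), Sftpc (11.00 to 14.28), the alveolar type I marker Ager (7.59 to 10.96) and the endothelial marker Pecam1 (1.28 to 2.41). Xist had 4121 to 90980 reads in the replicate 1 libraries and 1 to 13 in the replicate 2 libraries, and the Y-linked Ddx3y had 0 to 3 and 972 to 2175, so each group holds 1 library of each sex and the replicate number cannot be told apart from sex.

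E18.5 GFP/GFP replicate 1 stood apart from the other E18.5 libraries. Its log2 RPKM had a Pearson r of 0.928 with replicate 2 across the genes tested, the lowest of any pair at E18.5, where the others lay between 0.933 and 0.984. Relative to the mean of the other 3 E18.5 libraries its median level was lower by 1.13 for club cell secretory genes, by 0.61 for surfactant genes and by 0.88 for macrophage genes. The same difference was 0.84 for fetal growth genes and 0.73 for proliferation genes, both higher in replicate 1, and 0.09 over all genes tested. The change of a named gene is therefore also given without this library where it turned or moved by over 1.5 times. E18.5 GFP/GFP then rests on replicate 2 alone, a library with Y-linked Ddx3y reads. The P1.5 +/+ libraries also lay apart, with a Pearson r of 0.917 between them. P1.5 +/+ replicate 2 had a higher r with the E18.5 +/+ libraries, 0.940 and 0.949, than with its own replicate. Every change in +/+ given below averages these P1.5 +/+ libraries.

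In GFP/GFP lung 252 genes rose from E18.5 to P1.5, 1.61% of the genes tested, and 459 genes fell, 2.94%. The counts called in each gene list below are to be set beside these shares. At an unadjusted p under 0.05 the counts were 1502 higher and 4058 lower. The number of called genes rested on single libraries. Without E18.5 GFP/GFP replicate 1 or without P1.5 GFP/GFP replicate 1 no gene passed (limma, with 724 higher and 1758 lower, and 976 higher and 1857 lower, at an unadjusted p under 0.05), and without P1.5 GFP/GFP replicate 2 only 1 gene did. Leaving out either E18.5 +/+ library, which enters only through the shared spread, left 52 or 53 genes higher and 29 lower. Without E18.5 GFP/GFP replicate 2 the fit called 1085 higher and 1364 lower, and without either P1.5 +/+ library it called 1137 or 1139 higher and 3726 or 3735 lower. The median change of the genes called higher was 2.84 with all libraries and 2.33 without E18.5 GFP/GFP replicate 1. For the genes called lower it was -2.60 and -2.28.

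**Figure D1:**
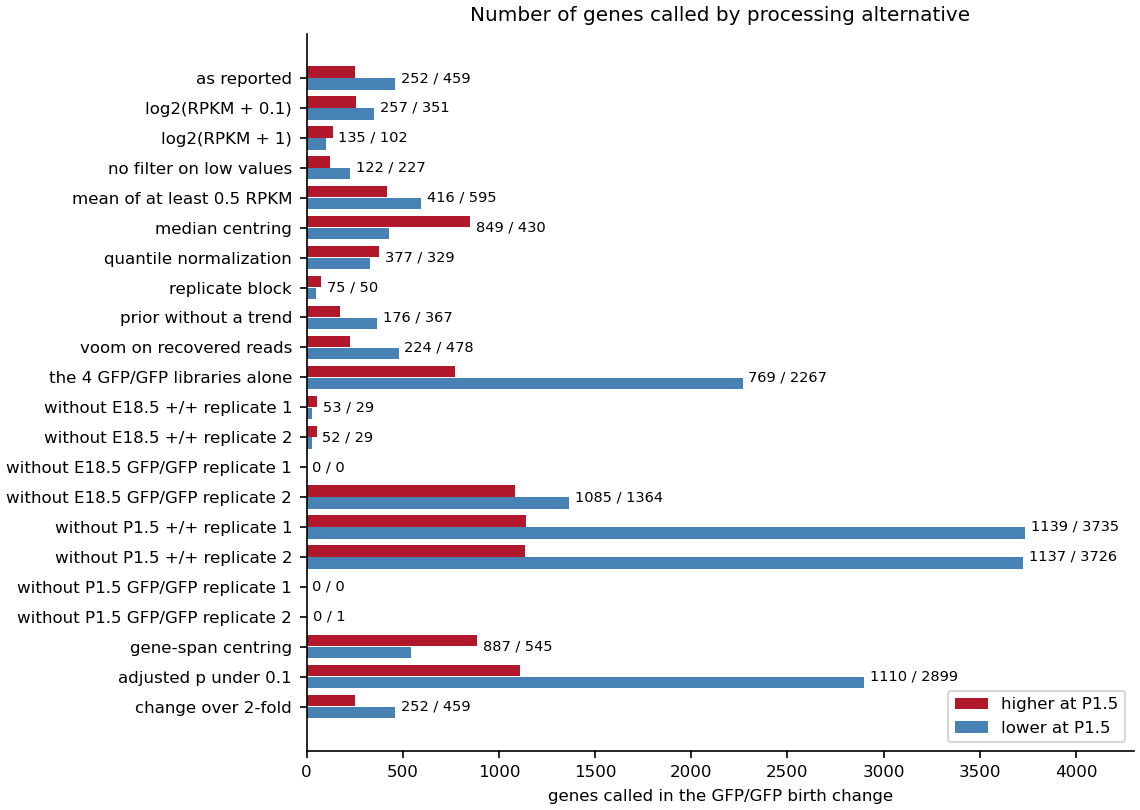
Number of genes called higher (red bars) and lower (blue bars) at P1.5 than at E18.5 in GFP/GFP lung under each processing alternative, with the 2 counts beside the bars. The count as reported is 252 higher and 459 lower, and it drops to 0 or 1 when E18.5 GFP/GFP replicate 1 or either P1.5 GFP/GFP library is left out.

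The median change over all genes tested was -0.46 in GFP/GFP and -0.15 in +/+, so a change near -0.46 in GFP/GFP is that of the typical gene. Centring each library on its median moved the median change in GFP/GFP to 0.21 and turned the balance of calls to 849 higher and 430 lower. The typical change depended on the span of the gene from its first to its last base, introns included. In the shortest of 6 equal classes, 0.057 to 3.4 kb, the median change in GFP/GFP was 0.34, and in the longest, 63.1 to 4430 kb, it was -1.01. The medians in +/+ for these classes were 0.67 and -0.52. Replicate 1 minus replicate 2 of E18.5 GFP/GFP went the other way, with medians of -0.35 and 0.62. The shortest class held 88 of the genes called higher and 46 of those called lower, and the longest held 1 and 59. When each library was centred within the 6 classes, 887 genes were called higher and 545 lower. Span therefore moves with the counts of called genes, and its part in each change was not tested.

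**Figure D2:**
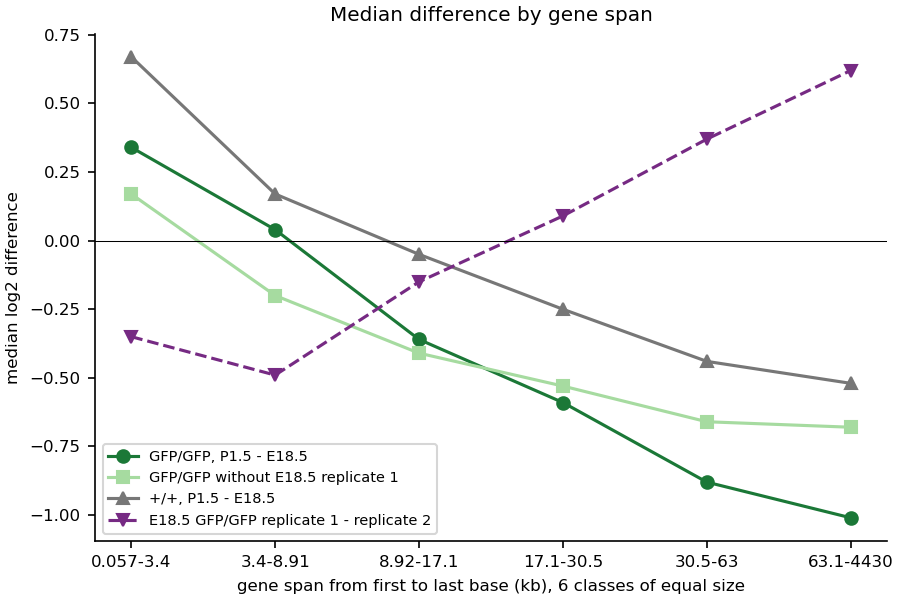
Median log2 difference of the genes tested in 6 classes of gene span (kb) for the GFP/GFP birth change with and without E18.5 replicate 1, the +/+ birth change, and the 2 E18.5 GFP/GFP libraries against each other. The birth change declines from short to long genes in both genotypes, and the difference between the E18.5 GFP/GFP libraries rises.

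Most of the genes that rose in GFP/GFP lung were also higher after birth in +/+ lung. Of the 252 genes, 239 (94.8%) had a positive change in +/+, against 42.9% of all genes tested, and in 211 (83.7%) both P1.5 +/+ libraries lay above both E18.5 +/+ libraries, against 27.4%. Of the 459 genes that fell, 341 (74.3%) had a negative change in +/+, against 57.1%, and in 240 (52.3%) both P1.5 +/+ libraries lay below, against 28.2%. The changes in +/+ were smaller, with medians of 1.14 and -0.65 for these genes against 2.84 and -2.60 in GFP/GFP, where the genes had been chosen for a large change. The calls rest on a spread pooled over all 8 libraries, which favours genes whose +/+ replicates lie close together. The genes called higher also had a median span of 5.33 kb, against 17.1 kb for all genes tested. In +/+ the shortest span class had a median change of 0.67. The shares over all genes were not matched for spread or span. Across all genes tested the 2 birth changes had a Pearson r of 0.56 and a Spearman rho of 0.58, a description over genes, which are not independent. In +/+ lung only 9 genes were called, 0.0576% of those tested, with 1850 at an unadjusted p under 0.05. Among the 9, H1fnt (38 and 24 reads) and Prm2 (31 and 17) had reads only in the E18.5 +/+ libraries. Gm9781 (11 and 16 reads) had them only in P1.5 +/+, and so did Rpsa-ps10 (75 and 33) apart from 1 read in E18.5 +/+. What gave these reads was not tested. The difference between the 2 birth changes was called for 0 genes, 0.0% (limma, smallest adjusted p = 0.135), with 1599 at an unadjusted p under 0.05. A gene called in GFP/GFP and not in +/+ is thus not shown to differ between the genotypes.

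**Figure D3:**
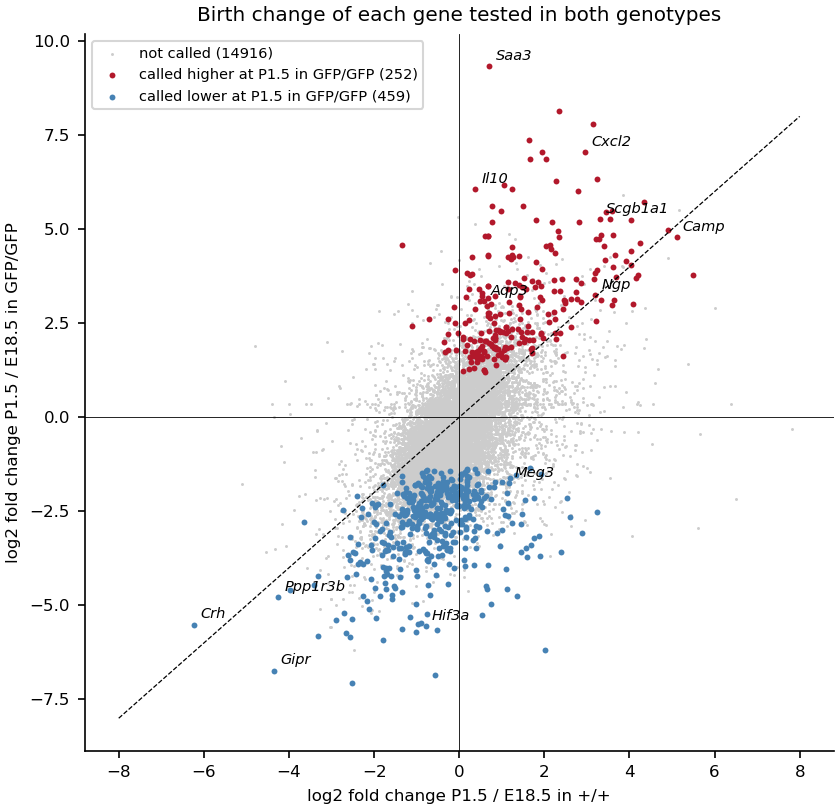
Birth change of each of the 15627 genes tested as log2 fold change of P1.5 over E18.5, in +/+ (horizontal axis) and in GFP/GFP (vertical axis), with the called genes coloured and the line of equal change dashed. Camp, Ngp, Ppp1r3b and Crh lie near the line, while Saa3, Cxcl2 and Il10 lie far above it and Hif3a and Meg3 below it.

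Ppp1r3b, Gipr, Crh and Ngp were called in both genotypes and moved the same way in each. Ppp1r3b (chr8:35375741-35388124), a glycogen-targeting subunit of protein phosphatase 1, stood at 4.53 and 3.90 log2 RPKM in E18.5 GFP/GFP and at -0.98 and -0.17 in P1.5 GFP/GFP. It fell by 4.79 (SE 0.40, adjusted p = 0.0119, limma), and the change in +/+ was -4.25. The 4 P1.5 libraries were all below 0 and the 4 E18.5 libraries all above 3.3. Gipr, the receptor of the gut hormone GIP (chr7:19157125-19166127), had 1279 and 1294 reads at E18.5 and 7 and 13 at P1.5 in GFP/GFP, and fell by 6.73 (SE 0.39, adjusted p = 0.00268, limma), the smallest adjusted p of all genes. Its change in +/+ was -4.36. Crh, which encodes corticotropin-releasing hormone, fell by 5.51 (SE 0.69, adjusted p = 0.021, limma), from 1175 and 314 reads to 5 and 22, and changed by -6.22 in +/+. Ngp, a neutrophil granule protein, is described with the neutrophil genes below. For Ppp1r3b, Crh and Ngp the 95% interval of the difference between genotypes included 0 (-1.84 to 0.76, -1.55 to 2.96 and -1.13 to 1.24), while for Gipr it ran from -3.65 to -1.09 with an unadjusted p = 0.0028 that did not pass after adjustment (limma, adjusted p = 0.222).

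**Figure D4:**
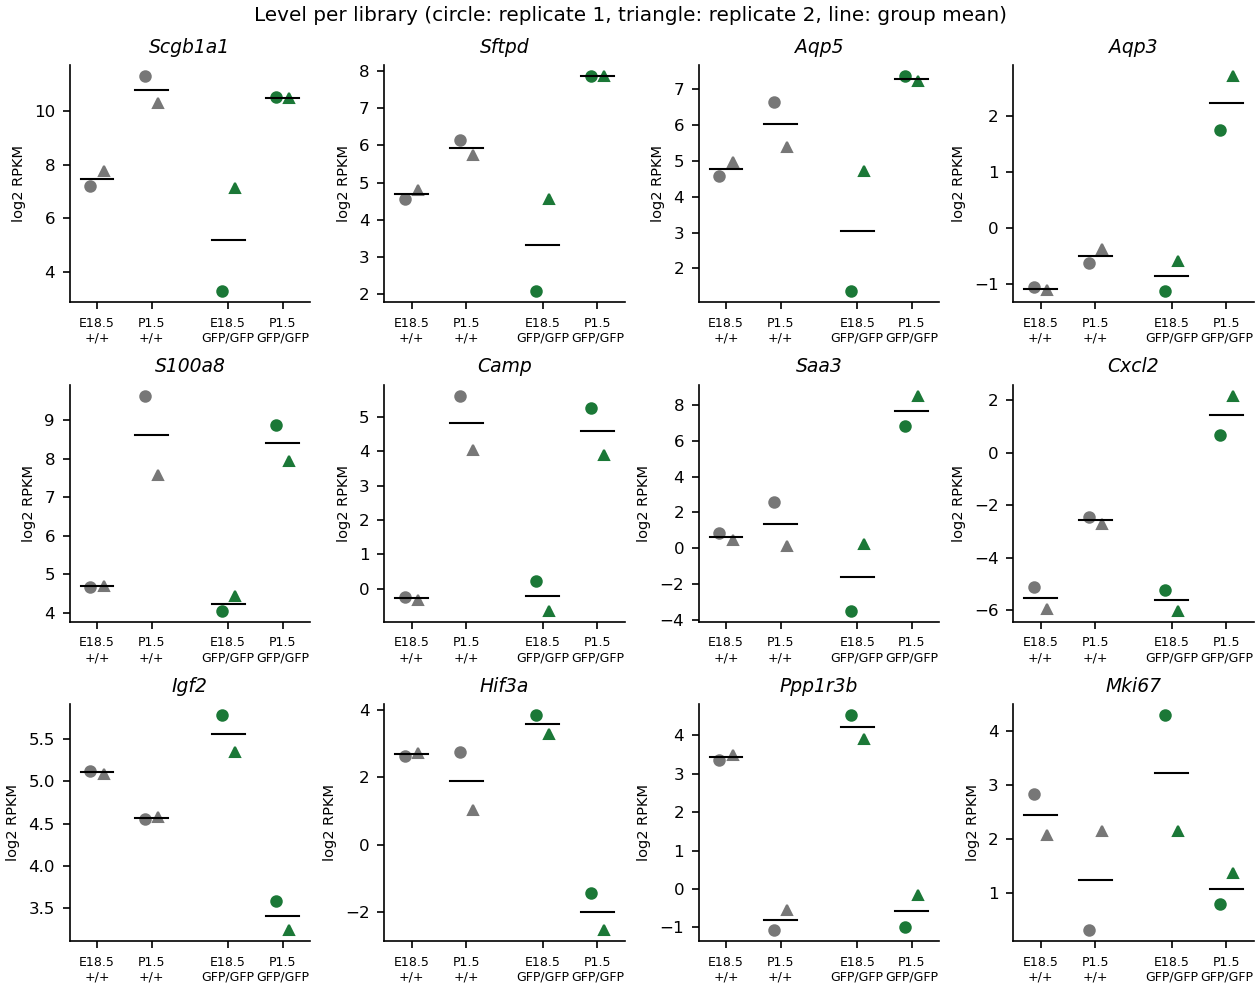
Level of 12 genes in each library as log2 RPKM, for +/+ (grey) and GFP/GFP (green) lung at E18.5 and P1.5, with circles for replicate 1, triangles for replicate 2 and a line at the group mean. Scgb1a1, S100a8 and Camp are higher and Ppp1r3b lower at P1.5 in both genotypes, whereas Saa3, Cxcl2 and Aqp3 are highest in the 2 P1.5 GFP/GFP libraries and Hif3a is lowest there.

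Secretory products of the airway were among the genes that rose. Of the 16 club cell secretory genes, 4 rose in GFP/GFP, none fell and 12 did not pass, with a list median of 1.61, and 12 had both P1.5 libraries above both E18.5 libraries, a pattern shown by 18.7% of all genes tested. Scgb1a1 (chr19:9083636-9087958), the main secreted protein of club cells, stood at 3.29 and 7.14 log2 RPKM at E18.5 and at 10.51 and 10.46 at P1.5. It rose by 5.27 (SE 1.07, adjusted p = 0.0459, limma), and by 3.35 when the low E18.5 replicate 1 was left out, close to the change of 3.31 in +/+. Its 2 P1.5 GFP/GFP libraries lay between 10.28 and 11.29, the values of the 2 P1.5 +/+ libraries. Bpifa1 and Bpifb1, secreted defence proteins of the airway surface, rose by 3.78 and 2.54 (limma, adjusted p = 0.05 and 0.0461), with changes of 5.49 and 2.1 in +/+. Hp, the haemoglobin-binding protein haptoglobin, rose by 3.09 (limma, adjusted p = 0.0469), and its change in +/+ was 0.48. Among members that did not pass, Scgb3a2 changed by 1.52 in GFP/GFP (0.72 without E18.5 replicate 1) and 1.53 in +/+, and Cbr2, a carbonyl reductase, by 2.61 (1.54) and 1.45. Reg3g, a secreted antibacterial lectin, changed by -0.08 in GFP/GFP (-0.70 without E18.5 replicate 1) and by -2.51 in +/+, a difference with an unadjusted p = 0.00734 that did not pass after adjustment over all genes in limma.

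Among surfactant genes only collectins passed. In 7 of the 16 tested both P1.5 GFP/GFP libraries lay above both E18.5 GFP/GFP libraries, and in 3 they lay below, against 18.7% and 48.5% of all genes tested. Of 16 surfactant and lamellar body genes 2 rose, none fell and 14 did not pass, with a list median of 0.18 that became -0.17 without E18.5 GFP/GFP replicate 1 and 0.86 after median centring. Both that rose, Sftpd and Sftpa1, encode collectins, the surfactant proteins that bind microbes. Sftpd (chr14:41172212-41185198) stood at 2.08 and 4.57 log2 RPKM at E18.5 and at 7.85 and 7.86 at P1.5, and rose by 4.53 (SE 0.69, adjusted p = 0.0316, limma), or by 3.28 without E18.5 replicate 1. Both P1.5 GFP/GFP libraries lay above the 2 P1.5 +/+ libraries, at 6.13 and 5.75, where the change was 1.25. Sftpa1 rose by 2.50 (limma, adjusted p = 0.0459), with 0.14 in +/+. The unadjusted p of the difference between genotypes was 0.0106 for Sftpd and 0.0119 for Sftpa1, and neither passed after adjustment (limma, adjusted p = 0.323 and 0.337). The hydrophobic proteins that lower surface tension did not pass. Sftpc went from 11.00 and 12.51 to 14.28 and 13.78, a change of 2.27 (1.51 without E18.5 replicate 1) against 1.23 in +/+, without overlap between the stages in either genotype. Sftpb went from 6.44 and 7.87 to 7.43 and 7.34, a change of 0.23 with overlapping stages, against -0.40 in +/+. It turned to -0.48 without E18.5 replicate 1. Abca3, which loads lipid into lamellar bodies, changed by -0.83, and Nkx2-1, the transcription factor of lung epithelium, by -1.05.

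Of 16 alveolar type I markers only Aqp5, a water channel, rose, none fell and the list median was -0.38, against -0.46 for all genes, and 0.29 after median centring. Aqp5 went from 1.36 and 4.72 to 7.37 and 7.23 and rose by 4.26 (SE 0.95, adjusted p = 0.05, limma), or by 2.58 without E18.5 replicate 1, against 1.26 in +/+. Ager, a receptor abundant on type I cells, changed by 2.15 without passing, from 7.59 and 9.42 to 10.96 and 10.34, or by 1.23 without E18.5 replicate 1, and by 1.03 in +/+. Cav1, a caveolar coat protein, changed by -1.46 and Hopx, a homeodomain factor, by -0.16 (-0.54 without E18.5 replicate 1), and neither passed.

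Fluid transport genes moved in both directions. Of 20 genes 2 rose, Aqp5 and Aqp3, and 2 fell, Ano1 and Nedd4l, with a median of 0.21 that became -0.08 without E18.5 GFP/GFP replicate 1. Aqp3 (chr4:41092722-41098183), a water and glycerol channel of basal and airway cells, was at -1.13 and -0.59 log2 RPKM at E18.5 and at 1.74 and 2.71 at P1.5. It rose by 3.08 (SE 0.41, adjusted p = 0.021, limma) and by 2.82 without E18.5 replicate 1. In +/+ the change was 0.59, and the 95% interval of the difference was 1.14 to 3.85 (limma, unadjusted p = 0.00293, adjusted p = 0.222). Both P1.5 GFP/GFP libraries were the highest of the series, and the other 6 lay between -1.13 and -0.37. Ano1, a calcium-activated chloride channel of secretory epithelium, fell by 2.18 and Nedd4l, a ubiquitin ligase that removes sodium channels from the membrane, by 2.39 (limma, adjusted p = 0.0471 and 0.032), with -0.56 and -1.08 in +/+. The subunits of the epithelial sodium channel, through which the newborn lung clears fluid, did not pass: Scnn1a changed by 0.31, Scnn1b by 1.72 and Scnn1g by 1.10, against -0.08, 1.53 and 0.39 in +/+. Without E18.5 GFP/GFP replicate 1 these were -0.32, 1.21 and 0.65.

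Genes for making surfactant lipid included 2 that fell. Of 20 genes of fatty acid and phosphatidylcholine synthesis none rose, 2 fell and 18 did not pass, where 2.94% of all genes tested fell. The median was -0.66, which became 0.01 after median centring and 0.24 after centring by gene span. In 11 of the 20 both P1.5 libraries lay below both E18.5 libraries in GFP/GFP, and in 11 in +/+, against 48.5% and 28.2% of all genes tested. The list median in +/+ was -0.64. Scd2, a desaturase, went from 6.22 and 6.96 to 3.89 and 4.47 and fell by 2.41 (SE 0.36, adjusted p = 0.0294, limma), with -2.28 in +/+ and an interval of the difference from -1.31 to 1.04. Gpam, which starts glycerolipid synthesis in mitochondria, fell by 3.85 (limma, adjusted p = 0.039), with -2.34 in +/+. Of 21 genes of cholesterol synthesis and uptake none passed, with a median of 0.10 in GFP/GFP and -0.73 in +/+.

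Fetal growth genes were lower after birth. Of 18 fetal growth and imprinted genes none rose, 5 fell and 13 did not pass, with a median of -1.86 (-1.46 without E18.5 GFP/GFP replicate 1 and -1.19 after median centring), and 16 had both P1.5 libraries below both E18.5 libraries, as did 48.5% of all genes tested. Igf2 (chr7:142650766-142666816), the main fetal growth factor, went from 5.78 and 5.34 log2 RPKM to 3.59 and 3.24 and fell by 2.14 (SE 0.30, adjusted p = 0.0227, limma). In +/+ it went from 5.12 and 5.09 to 4.55 and 4.58, a change of -0.54, and the P1.5 GFP/GFP libraries were the lowest of the series. H19, the neighbouring imprinted RNA of the same locus, fell by 2.60 (limma, adjusted p = 0.0358), with -0.67 in +/+. Hmga2 and Igf2bp1, fetal regulators of growth, fell by 2.96 and 1.90 (limma, adjusted p = 0.0427 and 0.05). Meg3 (chr12:109541001-109571726), a maternally expressed imprinted RNA, fell by 1.75 (SE 0.29, adjusted p = 0.0358, limma) while its values in +/+ went up from 3.39 and 3.46 to 4.45 and 4.71, a change of 1.16. Its level was 5.47 and 5.91 in E18.5 GFP/GFP and 3.91 and 3.97 in P1.5 GFP/GFP, and the difference between the birth changes was -2.91 (95% interval -3.86 to -1.96, unadjusted p = 0.000116, adjusted p = 0.151, limma).

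Cell division genes all pointed the same way without passing the test. None of 28 proliferation genes was called, yet all 28 had a negative change in GFP/GFP and in +/+, with medians of -2.13 and -1.38, and 25 of 28 had both P1.5 libraries below both E18.5 libraries in GFP/GFP, against 48.5% of all genes tested. In +/+ this held for 11 of 28, against 28.2% of all genes. The 28 genes largely follow the same cells and are not independent. Mki67, a marker of cycling cells, went from 4.29 and 2.15 log2 RPKM to 0.78 and 1.36, a change of -2.15 that became -1.08 without E18.5 replicate 1, the library with the highest level. Top2a, which untangles chromosomes before mitosis, went from 3.99 and 2.18 to -0.54 and 0.65, and Bub1, a spindle checkpoint kinase, from 1.28 and -0.68 to -4.35 and -3.11. In +/+ the 2 P1.5 libraries lay apart, with a median level of -1.31 log2 RPKM in replicate 1 and of 1.48 in replicate 2, beside 1.48 and 1.47 at E18.5. In bulk lung RNA, fewer cells of a type and less RNA per cell cannot be told apart, here and in every list that marks a cell type.

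Branching and matrix genes contained a few that fell. Of 20 branching and patterning genes none rose and 2 fell, with a median of -1.03. In 16 of the 20 both P1.5 libraries lay below both E18.5 libraries in GFP/GFP, and in 8 in +/+, against 48.5% and 28.2% of all genes tested. Hhip, an inhibitor that binds hedgehog ligands, fell by 2.61 and Sox9, a factor of distal epithelial tips and cartilage, by 2.52 (limma, adjusted p = 0.0455 and 0.039), with -1.08 and -1.28 in +/+. Shh, the ligand, changed by -2.53 without passing. Of 21 collagen and elastic fibre genes only Lox, the enzyme that cross-links collagen and elastin, fell, from 5.93 and 4.90 to 2.56 and 2.64, a change of -2.82 (SE 0.49, adjusted p = 0.039, limma) against -0.96 in +/+. The list median was -0.52, and 0.16 after median centring. Col1a1 changed by -1.42 and Eln, elastin, by -0.45 (-0.82 without E18.5 replicate 1), and neither passed. Of 21 endothelial and vascular tone genes none passed, with a median of -0.57 in GFP/GFP and -0.46 in +/+. The largest positive value among them was that of Car4, a carbonic anhydrase of lung capillaries, at 3.80 (limma, adjusted p = 0.0503) against 1.60 in +/+, and it became 2.24 without E18.5 replicate 1. Of 17 motile cilia genes, Ccdc39 and Rsph4a, both needed for the ciliary axoneme, fell by 3.17 and 2.09 (limma, adjusted p = 0.0359 and 0.0398) and Foxj1, the master factor of motile cilia, changed by 0.15, which turned to -0.27 without E18.5 replicate 1. The list median was -0.59, against -0.46 for all genes tested and -0.22 for the list in +/+, and it was 0.08 after median centring. In 9 of the 17 both P1.5 GFP/GFP libraries lay below both E18.5 GFP/GFP libraries, against 48.5% of all genes tested. In +/+ this held for 8, against 28.2%. The difference between the birth changes had an unadjusted p under 0.05 (limma) for 0 of the 17.

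Among 20 hypoxia genes, which include subunits and targets of hypoxia-inducible factors (HIF), 18 had a negative change in each genotype and 2 a positive one. Of all genes tested, 36.1% had a positive change in GFP/GFP and 42.9% in +/+. In GFP/GFP none rose, 4 fell and 16 did not pass, with a median of -1.23 against -0.88 in +/+ and -0.55 after median centring. Hif3a (chr7:17031507-17062427), a HIF subunit, went from 16525 and 8827 reads to 265 and 157 and fell by 5.55 (SE 0.59, adjusted p = 0.0189, limma), the largest fall of the list. In log2 RPKM it went from 3.84 and 3.29 to -1.43 and -2.53, while the +/+ libraries stood at 2.63 and 2.73 and then at 2.75 and 1.04. Its change in +/+ was -0.78, with overlapping stages, and the difference between the birth changes was -4.76 (95% interval -6.71 to -2.81, unadjusted p = 0.000518, adjusted p = 0.153, limma). Egln3, an oxygen sensor that marks HIF for degradation, fell by 3.48, Pdk1, a kinase that limits pyruvate oxidation, by 2.57, and Ndrg1 by 2.29 (limma, adjusted p = 0.021, 0.0351 and 0.0427), with -1.42, -2.13 and -0.61 in +/+. Both E18.5 GFP/GFP libraries lay above both E18.5 +/+ libraries in each of these 4 genes. The 4 had been chosen for a fall from E18.5 in GFP/GFP, which favours a high level there. The share of all genes with this pattern was not counted. Ldha, lactate dehydrogenase, changed by -0.27 in GFP/GFP and -1.28 in +/+, and Epas1, the endothelial HIF subunit, by 1.45 and 0.96, and neither passed in GFP/GFP.

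Neutrophil genes rose at birth in GFP/GFP and had positive changes in +/+ as well. Of 17 markers 8 rose in GFP/GFP, none fell and 9 did not pass, and all 17 had a positive change, with a median of 1.87 (1.81 without E18.5 GFP/GFP replicate 1). In 13 of the 17 both P1.5 GFP/GFP libraries lay above both E18.5 GFP/GFP libraries, against 18.7% of all genes tested. In +/+ the median was 2.73 and 16 of 17 had a positive change. In all of those 16 both P1.5 +/+ libraries lay above both E18.5 +/+ libraries, against 27.4% of all genes tested. S100a8 (chr3:90669071-90670034), which with S100a9 forms the calcium-binding protein calprotectin, stood at 4.05 and 4.43 log2 RPKM at E18.5 and at 8.87 and 7.95 at P1.5. It rose by 4.17 (SE 0.65, adjusted p = 0.032, limma), with 3.93 in +/+ and a 95% interval of the difference from -1.88 to 2.36. S100a9 rose by 4.85 against 3.61. The granule proteins Camp, Ltf and Ngp, which are antimicrobial proteins stored by maturing neutrophils, rose by 4.79, 3.68 and 3.24 (limma, adjusted p = 0.021, 0.021 and 0.0189), with 5.11, 2.73 and 3.19 in +/+. Cxcr2, the receptor for the chemokines Cxcl1 and Cxcl2, rose by 1.84 against 1.70 in +/+, and Retnlg by 5.46 against 3.46. Mmp9, a secreted protease, rose by 4.14 (limma, adjusted p = 0.0189) against 1.80, with an interval of the difference from 0.79 to 3.89 and an unadjusted p = 0.00856 (limma) that did not pass after adjustment.

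The inflammatory cytokine and chemokine list showed the widest gap between the genotypes' medians, 2.98 in GFP/GFP and 0.34 in +/+. Of its 22 genes 6 rose in GFP/GFP, none fell and 16 did not pass, and 16 had both P1.5 libraries above both E18.5 libraries, against 18.7% of all genes tested. In +/+ this held for 8, against 27.4%. The difference between the birth changes had an unadjusted p under 0.05 for 10 of the 22, against 1599 of the 15627 genes tested, and none passed after adjustment (limma). The list had been assembled with earlier results of these libraries known. Saa3 (chr7:46711998-46715676), an acute phase protein made by lung epithelium and macrophages, had 12 and 126 reads at E18.5 and 9766 and 39931 at P1.5 in GFP/GFP. It rose by 9.33 (SE 1.25, adjusted p = 0.021, limma), or by 7.46 without E18.5 replicate 1, the largest increase of any gene under the rule used for naming. The 4 +/+ libraries held 77 to 489 reads of Saa3, and the change there was 0.71. Lcn2, an iron-trapping antibacterial protein, rose by 5.62 (SE 0.79, adjusted p = 0.0237, limma), from 0.68 and 3.40 log2 RPKM to 7.29 and 8.04, against 0.77 in +/+. Il1b, a cytokine of activated macrophages and neutrophils, had 1 and 12 reads before and 147 and 701 after birth and rose by 6.88 (limma, adjusted p = 0.039), and by 4.91 without E18.5 replicate 1.

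Il10 (chr1:131019845-131024974), a cytokine that restrains inflammation, had 2 and 0 reads at E18.5 and 27 and 185 at P1.5, at least 40.9-fold higher as a ratio of mean RPM with each E18.5 library set at 3 reads. This ratio of linear means is not on the scale of the log2 changes, and for such genes the fitted log2 change is no bound. In +/+ it had 0 to 3 reads in every library, at or under the limit of detection. The neutrophil attractants Cxcl1 and Cxcl2 rose by 3.81 and 7.05 (limma, adjusted p = 0.0455 and 0.0119), with 0.30 and 2.96 in +/+. Cxcl2 had 2 and 0 reads at E18.5 and 74 and 266 at P1.5, at least 67.1-fold higher by the same reckoning, while +/+ had 2 and 1 reads at E18.5 and 8 and 6 at P1.5. Among the members that did not pass, Ccl2 changed by 2.99, Ccl4 by 4.42, Il6 by 3.63 and Tnf by 2.97, against -0.52, -0.44, 2.76 and -0.49 in +/+. Tnf changed by 1.59 without E18.5 replicate 1. P1.5 GFP/GFP replicate 2 was the higher of its pair for every member of the list but Ccl4.

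The sequences just before the start of Cxcl1 and Cxcl2 are shown because the 2 genes rose together and their promoters have known binding sites for the inflammatory factor NF-kappaB. Reference promoters, 250 bases before to 50 after the start, were taken from RefSeq (GRCm38.p6) and searched on both strands for 1 form of that site, GGG followed by any 2 bases and then TTTCC. Of the 22 genes 16 were matched in the table, and 6 held the letters, Cxcl1, Cxcl2, Cxcl3, Il6, Ccl20 and Nfkbia, as did 1.63% of the 32851 promoters in the table. Of the 5 matched genes that were called, 2 held them. The stretches below read 5′ to 3′ on the + strand, at chr5:90891136-90891203 for Cxcl1, chr5:90903782-90903850 for Cxcl2 and chr5:90786008-90786057 for Cxcl3, with the matches in capitals. A match of letters is a description and not a measured site.
Cxcl1: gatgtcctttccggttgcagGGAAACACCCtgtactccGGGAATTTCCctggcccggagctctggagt
Cxcl2: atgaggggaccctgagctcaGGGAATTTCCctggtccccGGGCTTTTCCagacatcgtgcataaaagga
Cxcl3: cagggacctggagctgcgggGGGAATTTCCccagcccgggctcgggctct
Cxcl1 and Cxcl2 each held 2 matches, 71 to 97 bases before the start, and Cxcl3 held 1. Cxcl3 itself did not pass, with a change of 2.83 in GFP/GFP (1.08 without E18.5 replicate 1) and -1.89 in +/+.

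**Figure D5:**
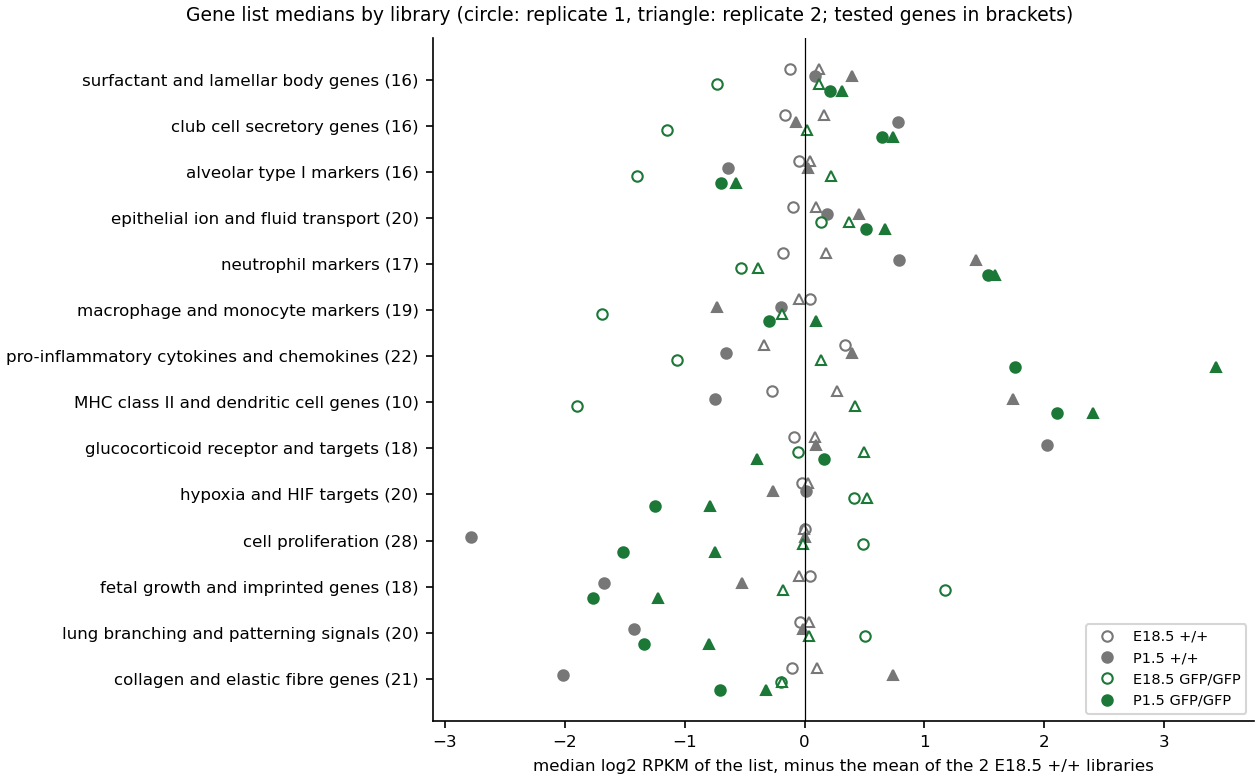
Median level of the tested genes of 14 lists in each library, as log2 RPKM minus the mean of the 2 E18.5 +/+ libraries, with open symbols for E18.5, filled for P1.5, grey for +/+ and green for GFP/GFP. The inflammatory list is highest in the 2 P1.5 GFP/GFP libraries, the neutrophil list is raised in all 4 P1.5 libraries, and E18.5 GFP/GFP replicate 1 lies apart from the other E18.5 libraries for the club cell, macrophage and fetal growth lists.

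A few genes of dendritic cells and lymphocytes rose after birth in GFP/GFP. Of the 17 genes of the MHC class II and dendritic cell list, 10 reached the mean RPKM needed for testing, and 2 of these rose. In all 10 both P1.5 GFP/GFP libraries lay above both E18.5 GFP/GFP libraries, against 3 of 10 in +/+ (18.7% and 27.4% of all genes tested). Ccl22 reached that mean through P1.5 GFP/GFP, at -2.50 and -0.54 log2 RPKM there and at -3.09 or lower in the other libraries. Passing through that group favours this pattern, so the 2 counts are not on an equal footing. Ccl17 and Ccl22, the paired chemokines that dendritic cells use to attract T cells, rose by 7.79 and 6.29 (limma, adjusted p = 0.0189 and 0.021). Ccl17 had 0 and 1 reads at E18.5 and 117 and 235 at P1.5, at least 71.4-fold higher as a ratio of mean RPM, and Ccl22 had 0 in both E18.5 libraries and 25 and 123 at P1.5, at least 28.8-fold higher. Their changes in +/+ were 3.16 and 2.28, from 4 and 1 reads to 25 and 5 and from 3 and 2 to 4 and 14. Cd74, the class II invariant chain, changed by 2.42 (1.59 without E18.5 replicate 1) and H2-Aa, a class II chain, by 2.98, and neither passed. Of 16 lymphocyte markers with values 9 were tested and 3 rose. Both P1.5 libraries lay above for 7 of the 9 in GFP/GFP and 8 of the 9 in +/+, with list medians of 2.50 and 2.00. Cd79a, a signalling chain of the B cell receptor, rose by 4.05 (limma, adjusted p = 0.039), with 4.03 in +/+, and Cd79b by 1.74, with 0.39. Cd3g, a chain of the T cell receptor complex, had 1 and 0 reads before and 26 and 91 after birth, at least 23.1-fold higher as a ratio of mean RPM (limma, adjusted p = 0.021). In +/+ it went from 6 and 6 reads to 14 and 48, a change of 2.78. Of 19 macrophage and monocyte markers only Marco, a scavenger receptor of alveolar macrophages, rose, by 3.67 (limma, adjusted p = 0.0331) against 3.16 in +/+. The list median was 1.48, and 0.91 without E18.5 GFP/GFP replicate 1. Of 19 interferon-responsive genes Ifi27l2a rose, by 3.31 (limma, adjusted p = 0.0427), and the list median of 0.12 became -0.40 without that library.

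Hormone and stress programmes showed few called genes. Of 18 glucocorticoid receptor targets and related genes none rose and Hsd11b1, the enzyme that regenerates active glucocorticoid in the lung, fell by 2.02 (SE 0.28, adjusted p = 0.0227, limma), from 2.40 and 2.58 to 0.59 and 0.35. Its change in +/+ was -0.90. The list median was -0.49 in GFP/GFP and 0.85 in +/+, where its median level was 4.04 log2 RPKM in P1.5 replicate 1 and 2.11 in replicate 2, and it was 0.19 in GFP/GFP after median centring. Zbtb16, a glucocorticoid-induced transcription factor, changed by -2.78 against 1.02, Errfi1 by -0.41 against 1.06 and Pdk4 by -0.77 against 0.84, with unadjusted p = 0.0179, 0.00771 and 0.014 for the difference, which did not pass after adjustment in limma. Dusp1, a phosphatase induced by glucocorticoid and stress, changed by 1.11 (0.66 without E18.5 replicate 1) against 2.13. Of 18 circadian clock genes none passed, and the median of -0.45 became 0.22 after median centring. Of 17 immediate early genes Fosb rose by 3.05 and Egr3 fell by 4.24 (limma, adjusted p = 0.0465 and 0.0204), with 2.50 and -2.64 in +/+. The median of that list was 1.20 in GFP/GFP and 0.84 in +/+. Of 19 antioxidant genes Sod2, the mitochondrial superoxide dismutase, rose by 1.74 (limma, adjusted p = 0.0479), from 2.12 and 2.72 to 3.71 and 4.62, against -0.34 in +/+ with an interval of the difference from 0.84 to 3.32.

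The 15 largest increases among the called genes with no overlap between the stages and at least 20 reads in both P1.5 libraries were Saa3, Prmt8, Ccl17, Serpina3f, Serpina3i, Cxcl2, Il1b, Itih4, Orm1, Ccl22, Ly6i, Il10, Lrg1, Cd3g and 2010005H15Rik. Besides the chemokines and cytokines described above, the group holds the acute phase proteins Orm1, Itih4 and Lrg1 and the protease inhibitors Serpina3f and Serpina3i. Itih4 had 6 and 34 reads at E18.5 and 681 and 2515 at P1.5 and rose by 6.86 (limma, adjusted p = 0.021) against 2.05 in +/+. Lrg1 went from 13 and 85 reads to 1301 and 2345, and Orm1 from 5 and 3 to 194 and 317. Prmt8, an arginine methyltransferase known from brain, had 4 and 0 reads at E18.5 and 299 and 605 at P1.5. The changes of these 15 genes ran from 5.71 to 9.33 in GFP/GFP and from 0.38 to 4.35 in +/+. Serpina3f and Serpina3i are close paralogs, and reads may be split between them and other members of their family.

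The 15 largest decreases by the same rule, with at least 20 reads in each E18.5 library required, ran from -5.40 to -7.06 and were Gm14230, Gm11734, Gipr, 2610507I01Rik, Zfp808, Nefl, Zfp59, Stab2, Pgbd1, Senp8, Hif3a, Crh, Zfp14, B130024G19Rik and Gm11515. Gm14230, Gm11734, 2610507I01Rik, B130024G19Rik and Gm11515 carry only systematic names, and Zfp808, Zfp59 and Zfp14 are zinc finger genes. Stab2, a scavenger receptor of sinusoidal endothelium, went from 1983 and 441 reads to 4 and 48, and Nefl, the neurofilament light chain, from 55 and 86 to 1 and 0. B130024G19Rik, with 68 and 37 reads at E18.5, had 0 reads in both P1.5 GFP/GFP libraries. In +/+ the changes of these 15 genes ran from -6.22 to 2.02, and only Crh was lower there by more than in GFP/GFP.

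The 10 genes with the smallest p of the difference between birth changes were Tbx6, Rpsa-ps10, Atg16l2, Serpinf2, Gabre, Tnfrsf25, Acrbp, Gm11705, Akap8l and Rhbdl1, with unadjusted p from 8.64e-06 to 9.91e-05 and adjusted p from 0.135 to 0.141 (limma). Tbx6 (chr7:126781483-126785560), a T-box transcription factor of early mesoderm, had -0.31 and 0.31 log2 RPKM in E18.5 GFP/GFP and -2.31 and -2.73 in P1.5 GFP/GFP, and fell by 2.52 (SE 0.40, adjusted p = 0.0331, limma). In +/+ it went the other way, from -2.49 and -2.08 to 1.08 and 0.81. Akap8l, a nuclear anchoring protein, fell by 1.35 from 2.14 and 2.01 to 0.90 and 0.56, while in +/+ it went from 0.39 and 0.44 to 2.22 and 1.93. Atg16l2, Gabre, Tnfrsf25, Acrbp and Serpinf2 fell in GFP/GFP as well and had positive changes in +/+. The pattern that these 7 genes and Rhbdl1 share is a low level in E18.5 +/+ and P1.5 GFP/GFP and a high level in E18.5 GFP/GFP and P1.5 +/+, with no overlap, as was also the case for Meg3 above. The genes were chosen by the difference between the birth changes, which favours such a crossing. The share of all genes tested with this crossing was not counted. Which libraries were prepared or sequenced together is not given in the sources used here, so this pattern and a shared preparation cannot be told apart.

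Markers of neighbouring tissues were checked because a dissected lung can carry them. The summed RPKM of 10 heart muscle markers was 35.3 and 221 in E18.5 GFP/GFP and 126 and 165 in P1.5 GFP/GFP, against 26.8 to 130 in +/+, and none of the 9 tested was called. The 8 skeletal muscle markers summed to 3.60 and 15.3 and then 7.88 and 4.36. The 8 hepatocyte markers summed to 0.71 and 0.77 at E18.5 and to 1.77 and 1.56 at P1.5 in GFP/GFP, with Ahsg at 0 reads in P1.5 replicate 1, and reached 17.3 in P1.5 +/+ replicate 2. The 7 oesophageal and basal keratins summed to 12.5 and 19.4 and then 12.2 and 4.39, against 37.0 in P1.5 +/+ replicate 2. Of the 15 erythroid genes with values 14 were tested and none passed, and the globins Hba-a1 and Hbb-b1 changed by 2.52 and 1.98, or by 1.28 and 1.23 without E18.5 replicate 1. Hba-a1 and Hba-a2 are near-identical, and their reads cannot be told apart with certainty.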

How the data were processed

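Total RNA from mouse lung was made into strand-specific libraries and sequenced on 1 of 2 Illumina instruments, and which library ran on which is not given in the sources used here. Per the labels and the study's methods, the authors trimmed reads with Trim Galore 0.4.0, aligned them to mm10 with TopHat2 2.1.1 (base calling CASAVA 1.8) and counted them per gene in SeqMonk. The values they deposited are on the log2 RPKM scale, scaled by library total and by the whole span of the gene, introns included, so that intron reads and long introns affect them. A gene with no reads had been entered as 0.9 read. Read numbers were recovered from the steps of the values, of which 99.86 to 99.97% came out whole within 0.02 read. Each group has 2 libraries, described as different animals.

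Genes whose mean reached 0.05 RPKM were tested with limma 3.58.1 in R 4.3.3 on the deposited log2 RPKM, with 4 group means, a prior with a trend and Benjamini-Hochberg adjustment. The mean was taken over all 8 libraries, so a gene high only in P1.5 GFP/GFP, such as Il10, could pass through that group. The 8 libraries share 1 estimate of the spread (4 residual degrees of freedom), so the SE of the birth change is the same for both genotypes. An exact permutation test of 2 against 2 libraries cannot go below p = 0.33. Limits of detection were set at 3 reads and cover counting error only. The fit was tested on simulated reads whose replicates differed only by a small spread that was the same for all genes. The simulation held no library standing apart, no sex difference and no trend with gene span. It therefore does not show how the fit behaves with those.

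The comparison and the gene lists were chosen with earlier results of these data known, and the promoter motif after the values were seen. The text names Wfdc2, the 15 largest increases and decreases among called genes that did not overlap between stages and had at least 20 reads in both libraries of the higher stage, the 10 genes with the smallest p of the difference, and members of the lists. Some list members, among them Mcidas, Dnah5, Foxf1 and Hbb-bs, are not analysed here. Alternatives were 2 pseudocounts, 2 filters, median centring, quantile normalization, a replicate block, a prior without a trend, voom on recovered reads, the GFP/GFP libraries alone, other thresholds and leaving out each library. Centring by gene span, the combinations of an alternative with the loss of E18.5 GFP/GFP replicate 1, and the GFP/GFP calls without each +/+ library were added after seeing the data.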

Additional observations from a re-analysis of the deposited data

How the results depend on the processing

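The counts of genes called in GFP/GFP, 252 higher and 459 lower, became 135 and 102 with log2(RPKM + 1), 122 and 227 with no filter on low values, 849 and 430 with median centring, 887 and 545 with gene-span centring, 769 and 2267 with the 4 GFP/GFP libraries alone and 1110 and 2899 at an adjusted p under 0.1. With a mean of at least 0.5 RPKM 416 were higher and 595 lower. Leaving out 1 library at a time gave 0 to 1139 higher and 0 to 3735 lower. Without E18.5 GFP/GFP replicate 1, median centring, voom and gene-span centring each called 0 higher and 0 lower (limma, with 1715 and 1138, 712 and 2536, and 1741 and 1202 at an unadjusted p under 0.05). The replicate block, which by the Xist and Ddx3y reads is also a block on sex, gave 75 higher and 50 lower in GFP/GFP and 0 in +/+. The fit as reported has no term for sex. The labels do not say that a replicate number marks shared animals, litters or batches, and the correlation of the deviations of same-numbered libraries was -0.007 between the GFP/GFP stages, 0.23 between genotypes at E18.5, 0.21 between genotypes at P1.5 and -0.294 at the lowest, so the samples were not taken as paired. The other settings, log2(RPKM + 0.1), quantile normalization, a prior without a trend, voom and the 2-fold minimum, left both GFP/GFP counts within 1.5 times. The cause of these shifts was not tested, except that fits with fewer libraries have fewer degrees of freedom.

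In +/+ the 9 genes called became 16 with log2(RPKM + 0.1), 17 with log2(RPKM + 1), 35 with no filter, 52 at 0.5 RPKM, 5 with median centring, 49 with quantile normalization, 0 with voom, 20 with gene-span centring and 97 at an adjusted p under 0.1, and ran from 0 to 2166 with a library left out, the highest without P1.5 +/+ replicate 2. The difference between genotypes was called for 0 to 2 genes with a library left out, 2 without E18.5 GFP/GFP replicate 2 and 2 without P1.5 +/+ replicate 1.

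Of 539 list medians over the alternatives, 42 differed in sign from the reported median, in 15 of 30 lists, among them those of surfactant, alveolar type I, interferon and muscle genes. The 16 of these whose reported median exceeded the spread between libraries are as follows. Median and gene-span centring turned lipid synthesis from -0.66 to 0.01 and 0.24 and motile cilia from -0.59 to 0.08 and 0.09. They turned endothelial genes from -0.57 to 0.10 and 0.05, or 0.03 and 0.01 without E18.5 GFP/GFP replicate 1, and clock genes from -0.45 to 0.22 and 0.20, or 0.19 and 0.16. Clock genes also became 0.25 at 0.5 RPKM and 0.06 with quantile normalization. Fluid transport, 0.21 as reported, became -0.08 without E18.5 GFP/GFP replicate 1 and -0.09 with voom and without replicate 1. It was 0.30 without E18.5 GFP/GFP replicate 2, 0.88 after median centring and 0.76 after gene-span centring.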

Other observations

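The only thymocyte marker tested had a change of 1.21 in GFP/GFP and 2.49 in +/+. The 3 cartilage markers tested had a median of -0.36 in GFP/GFP, which became 0.32 after median centring, and -0.31 in +/+, and none was called. The 7 skeletal muscle markers tested had a median of -0.45 in GFP/GFP, which became 0.23 after median centring, and 0.81 in +/+, with overlap between the stages in GFP/GFP for all 7.

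Hba-a2, a near-identical copy of the alpha globin gene Hba-a1, had 3381 and 35 reads in E18.5 GFP/GFP and 72 and 111 in P1.5 GFP/GFP, while Hba-a1 had 6203 and 27051 and then 47318 and 72625. In +/+ Hba-a2 had 118 and 4992 reads at E18.5 and 9841 and 3188 at P1.5. The fitted change of Hba-a2 in GFP/GFP was -1.60, and 1.52 without E18.5 replicate 1. The reads of Hba-a2 varied between replicates of the same group far more than the level of Hba-a1 did.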
